A study of Homo sapiens with 12 samples.

Results

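GDF15, FGF21, STC1, STC2 and INHBE encode hormones and related proteins that cells secrete, and their transcripts were followed in HuH-7 cultures given SLMP53-2. These 5 genes, of 24259 genes tested on the arrays, were selected on their known secretion under stress and on measured differences between the treated and DMSO arrays of this study, so their levels and differences are given as a description with no test. All 5 were on the array and all 5 passed the filter on dim probes. Each had 1 spot, apart from STC2, which had 2 probes and thus 2 spots, which makes 6 probes in all.

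HuH-7 is a human hepatocellular carcinoma line, which the labels list with a mutant p53. SLMP53-2 is a small molecule, a tryptophanol-derived oxazoloisoindolinone, that was studied as a reactivator of mutant p53. The 4 control cultures received the solvent DMSO for 24 h, 4 cultures received 28 µM SLMP53-2 for 24 h and 4 received 42 µM for 24 h, which correspond to 2 and 3 times the IC50. All 3 groups were the same line in the same medium, each culture gave 1 array, and all 12 arrays were hybridised in 1 colour on 5 slides. The sample titles name the higher dose 42 µM, the name kept here, while the descriptions of those arrays name it 48 µM.

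GDF15 is a distant relative of the TGF-beta family that reduces appetite through the receptor GFRAL and its partner RET in the hindbrain. FGF21 is a hormone made mainly by the liver that acts through FGF receptors together with the co-receptor KLB. STC1 and STC2 are stanniocalcins, glycoproteins that inhibit the proteases PAPPA and PAPPA2, which otherwise release insulin-like growth factors from their binding proteins. INHBE encodes the beta E subunit of the activins and inhibins and is made chiefly in the liver. Several of these genes are known to be transcribed in the integrated stress response, in which ATF4 and DDIT3 (also called CHOP) bind promoter elements shared by C/EBP and ATF factors.

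Values are normalized log2 intensities, on which a difference of 1 is a 2-fold change in the brightness of a spot, and they were compared within a probe only. A spot was counted as detected where the scanner software marked it as well above background. In RNA from whole cultures, fewer cells of a kind and less RNA per cell cannot be told apart. The scanner files place the probes on hg19: GDF15 at chr19:18499890-18499949, plus strand, INHBE at chr12:57850864-57850923, plus strand, and FGF21 at chr19:49260204-49260263, plus strand. The bright probe of STC2 lies at chr5:172744367-172744426 and the dim one at chr5:172741987-172742046, both on the minus strand. The exon or UTR under each probe was not analysed here.

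The sequence before the transcription start was matched for 3 of the 5 genes, GDF15, STC2 and FGF21, in the RefSeq promoter table of GRCh38.p14. STC1 was left out of this match in advance, and INHBE gave no entry. The sequences are shown for the genes matched. By log2 fold change, STC2 and GDF15 changed most of the 5 genes. FGF21 was read from a probe close to background, and its value at 42 µM ran from 0.21 to 0.84 with the processing. Whether the letters bear on the response was not tested. Each is the 250 bases before the start, 5′ to 3′ on the strand of the gene, with matches to the motifs searched in capitals. GDF15 is at chr19:18385908-18386157 (plus), STC2 at chr5:173328415-173328664 (minus) and FGF21 at chr19:48755274-48755523 (plus).
GDF15: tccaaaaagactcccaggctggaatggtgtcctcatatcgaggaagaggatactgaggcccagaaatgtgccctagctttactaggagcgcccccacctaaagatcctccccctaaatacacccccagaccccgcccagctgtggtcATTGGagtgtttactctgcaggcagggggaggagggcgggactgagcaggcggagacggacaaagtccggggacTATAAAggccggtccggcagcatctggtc
STC2: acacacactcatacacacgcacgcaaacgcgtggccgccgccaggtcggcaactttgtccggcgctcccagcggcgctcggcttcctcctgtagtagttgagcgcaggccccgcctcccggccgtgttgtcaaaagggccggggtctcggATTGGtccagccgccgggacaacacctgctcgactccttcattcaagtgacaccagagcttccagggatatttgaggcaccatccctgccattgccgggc
FGF21: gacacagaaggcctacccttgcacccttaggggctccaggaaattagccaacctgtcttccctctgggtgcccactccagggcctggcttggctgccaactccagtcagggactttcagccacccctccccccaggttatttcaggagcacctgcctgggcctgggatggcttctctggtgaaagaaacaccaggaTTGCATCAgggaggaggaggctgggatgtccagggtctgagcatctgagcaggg

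Both strands were searched for TGATGNAA, an element of C/EBP and ATF factors, for TGACGTCA, the cyclic AMP response element, for CCAAT and for TATAAA, and no motif found overlapped another. FGF21 held TGATGNAA on the opposite strand, read as TTGCATCA from base 54 to base 47 before the start, and 3.14% of 35116 promoters held that motif in the same window. GDF15 held TATAAA from base 29 to base 24, found in 10.7% of the promoters. GDF15 and STC2 each held CCAAT on the opposite strand, read as ATTGG, from base 103 to base 99 in GDF15 and from base 100 to base 96 in STC2. CCAAT was present in 32% of all promoters. TGACGTCA was in none of the 3 windows and in 1.65% of all promoters. A match says only that the letters are present.

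STC2, through its bright probe, and GDF15 were higher on every 42 µM array than on every DMSO array, and so was INHBE. FGF21 and STC1 overlapped between the groups. At 28 µM the arrays of replicates 1, 2 and 3 were high for GDF15, STC2 and INHBE, and that of replicate 4 lay at or close to the DMSO level for all 3 genes. Replicate 4 at 28 µM had 83.4% of gene probes well above background, against 65.0% to 85.0% on the 4 arrays of that dose and 69.5% to 76.6% on DMSO.

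GDF15 was at 14.94, 15.09, 15.02 and 15.17 on DMSO replicates 1 to 4. At 28 µM it was at 17.12, 16.96, 16.89 and 15.26, and at 42 µM at 17.22, 17.27, 16.88 and 16.94. The DMSO arrays lay within a narrow band and the 42 µM arrays lay above them without overlap, and even replicate 4 at 28 µM lay above the highest DMSO array. The group means were 15.05 ± 0.10, 16.56 ± 0.87 and 17.08 ± 0.20 (SD, n = 4 each). Without replicate 4 the mean at 28 µM was 16.99 ± 0.12 (SD, n = 3). The log2 fold change against DMSO was 1.50 (SE 0.313) at 28 µM and 2.02 (SE 0.313) at 42 µM, the latter a 4.06-fold difference. In raw brightness, the GDF15 spot was 529 to 761 times its local background on DMSO and 2105 to 2880 times at 42 µM, and no gene spot on any array was saturated.

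STC2, read from its bright probe, was at 8.51, 8.74, 9.02 and 8.72 on DMSO replicates 1 to 4. At 28 µM the values were 11.59, 11.17, 11.75 and 9.01, and at 42 µM they were 11.89, 12.23, 11.55 and 11.51. The lowest 42 µM array was thus far above the highest DMSO array, whereas replicate 4 at 28 µM lay just within the DMSO range. The means were 8.75 ± 0.21, 10.88 ± 1.27 and 11.79 ± 0.34 (SD, n = 4 each), and 11.50 ± 0.30 at 28 µM without replicate 4 (SD, n = 3). The log2 fold change was 2.13 (SE 0.455) at 28 µM and 3.05 (SE 0.455) at 42 µM, an 8.27-fold difference. Of the 24259 tested genes, ordered by log2 fold change from the highest down, STC2 stood at place 2 at 42 µM and at place 3 at 28 µM. GDF15 stood at places 22 and 15, INHBE at places 125 and 222, and FGF21 at places 2384 and 4464.

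The probes of STC2 disagreed. The dim one was well above background on 0 of 4 DMSO arrays, 1 of 4 arrays at 28 µM and 2 of 4 at 42 µM. The DMSO mean was 5.92 ± 0.03, the 28 µM mean 6.01 ± 0.12 and the 42 µM mean 6.03 ± 0.22 (SD, n = 4 each), and the groups overlapped. Since the probe was not well above background on any DMSO array, DMSO has only a rough bound there of 5.93 (log2). On each array the bound took the higher of the measured value and the lowest value of any probe well above background. It nearly equals the measured DMSO mean of 5.92 and is no detection limit of this probe. The 42 µM mean is close to that bound. The dim probe lies on the side of the bright one that is farther along the transcript, and which transcripts each detects was not tested.

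INHBE was at 7.64, 7.41, 7.14 and 7.26 on DMSO replicates 1 to 4. At 28 µM it was at 8.13, 8.50, 8.42 and 7.33, and at 42 µM at 8.69, 8.97, 8.29 and 8.27. All 42 µM arrays lay above all DMSO arrays, and replicate 4 at 28 µM lay inside the DMSO range. The means were 7.36 ± 0.22, 8.10 ± 0.53 and 8.55 ± 0.34 (SD, n = 4 each), and 8.35 ± 0.20 at 28 µM without replicate 4 (SD, n = 3). The log2 fold change was 0.73 (SE 0.240) at 28 µM and 1.19 (SE 0.240) at 42 µM, a 2.28-fold difference. The spot of INHBE was 3.59 to 3.72 times its local background on DMSO and 6.94 to 10.4 times at 42 µM.

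FGF21 was at 6.43, 6.38, 6.25 and 6.10 on DMSO replicates 1 to 4, at 6.57, 6.73, 6.31 and 6.29 at 28 µM, and at 6.72, 7.02, 6.32 and 6.47 at 42 µM. The groups overlapped at both doses, with 2 of 4 arrays at 28 µM and 3 of 4 at 42 µM above every DMSO array. The means were 6.29 ± 0.15, 6.48 ± 0.21 and 6.63 ± 0.31 (SD, n = 4 each). The log2 fold change was 0.19 (SE 0.160) at 28 µM and 0.34 (SE 0.160) at 42 µM. The spot was well above background on all 12 arrays but only 2.16 to 2.38 times its local background on DMSO. When the background-corrected processed signal of the scanner software was used, the value at 42 µM was 0.79 with quantile normalization and 0.84 with scaling to the 75th percentile.

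STC1, whose probe lies at chr8:23700118-23700177 of hg19 on the minus strand, gave no clear difference. The lowest, median and highest values were 6.13, 6.18 and 6.23 on DMSO, 5.86, 6.22 and 6.41 at 28 µM, and 6.04, 6.13 and 6.51 at 42 µM. The groups overlapped, with 1 treated array above every DMSO array at each dose. The log2 fold change was 0.00 (SE 0.135) at 28 µM and 0.03 (SE 0.135) at 42 µM. The spot was well above background on 10 of 12 arrays and 2.04 to 2.62 times its local background over all 12, and no difference was detectable at this brightness.

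Calls in these comparisons require a Benjamini-Hochberg adjusted p below 0.05 from limma over all tested probes and a change of 0.6 or more on the log2 scale in either direction. At 42 µM, 3 of the 5 genes (STC2, GDF15 and INHBE) were past these limits upward, against 1.57% of all tested genes, and since the genes were chosen with this comparison known, nothing is read from that count. At 28 µM, 0 of the 5 were past the limits, as were 0% of all genes, while 355 genes upward and 298 downward had the same size of change with an unadjusted p below 0.05. Only GDF15, or 1 of the 5 genes, had every 28 µM array above every DMSO array, which 2.78% of genes showed, and 3 of the 5 did at 42 µM, which 5.93% of genes showed. Leaving out replicate 4 at 28 µM moved GDF15, STC2 and INHBE past the limits at 28 µM, with log2 fold changes of 1.94, 2.75 and 0.99, and then 1.45% of all genes were called upward.

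The calls at 42 µM were lost in some of the fits that each left out 1 array. Among those fits, STC2 and GDF15 each stayed past the limits in 10, and INHBE in 7. For STC2, fits with and without a call gave similar values. It was at 2.97 (SE 0.513) and called without DMSO replicate 1. It was at 3.05 (SE 0.511) and not called without DMSO replicate 2, and the cause was not tested. Without DMSO replicate 2 the log2 fold changes were 3.05 (STC2), 2.03 (GDF15) and 1.21 (INHBE), and without 42 µM replicate 2 they were 2.90, 1.96 and 1.05, but 0 of the 5 genes were past the limits in either fit. Neither fit called any gene of the 24259 at 42 µM, while 739 genes upward and 580 downward without DMSO replicate 2, and 664 and 498 without 42 µM replicate 2, had a change of at least 0.6 with an unadjusted p below 0.05. Without DMSO replicate 3, DMSO replicate 4 or 42 µM replicate 1, INHBE alone lost its call, with 1.11, 1.16 and 1.15. With the slide as a fixed block the values were 3.14, 2.02 and 1.26 for STC2, GDF15 and INHBE, and again 0 were past the limits, with 0 genes of all 24259 called upward and 1 downward. In that fit, 782 genes upward and 586 downward had a change of at least 0.6 with an unadjusted p below 0.05. With the slide as a random block, STC2 (3.07), GDF15 (2.02) and INHBE (1.21) stayed past the limits, and 481 genes were called upward and 428 downward.

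Arrays of the same slide were also compared at 42 µM. For STC2 the 42 µM array exceeded the DMSO array of the same slide by 3.17, 3.21 and 2.81 on the 3 slides that held both. For GDF15 these differences were 2.05, 2.26 and 1.79, and for INHBE they were 1.42, 1.83 and 0.88. All 9 of these differences were upward, which follows from the lack of overlap between the groups and is no separate observation. The spread between slides was wider for INHBE, beside its pooled 1.19, and FGF21 gave 0.62, 0.77 and -0.06, so it differed in sign between slides.

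At 28 µM the 3 slides with both kinds of array gave STC2 differences of 3.23, 2.87 and -0.01, and the last came from the slide with replicate 4. GDF15 gave 1.95, 1.95 and 0.25 in the same order, and INHBE 0.78, 0.87 and 0.19. The slide that held replicate 4 also held a 42 µM array on which STC2 was 3.48, GDF15 2.22 and INHBE 1.61 above the DMSO mean (log2).

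**Figure D1:**
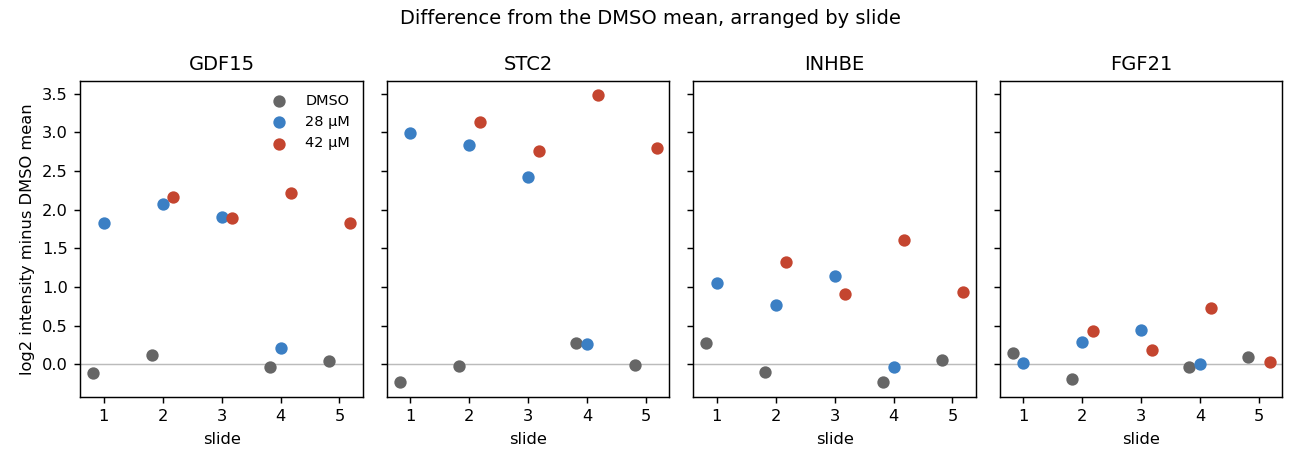
Log2 intensity minus the mean of the 4 DMSO arrays (vertical axis) for 4 of the genes, with each point 1 array placed at its slide, numbered 1 to 5 (horizontal axis). On slides 2, 4 and 5, which held both, the 42 µM array was 2.81 to 3.21 above the DMSO array for STC2 and 1.79 to 2.26 above it for GDF15, and the 28 µM point near 0 on slide 4 is replicate 4.

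The doses were also set against each other. The difference of 42 µM over 28 µM was 0.92 (SE 0.455) for STC2, 0.52 (SE 0.313) for GDF15 and 0.46 (SE 0.240) for INHBE, and 0 of the 5 genes were past the limits, as were 0% of all tested genes. Among all genes, limma gave 27 upward and 46 downward with a change of at least 0.6 and an unadjusted p below 0.05. Without replicate 4 at 28 µM the differences were 0.29 (SE 0.198) for STC2, 0.09 (SE 0.131) for GDF15 and 0.20 (SE 0.188) for INHBE. On the 2 slides that held both doses but not replicate 4, the difference was 0.30 and 0.34 for STC2, 0.10 and -0.02 for GDF15, and 0.56 and -0.23 for INHBE.

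The genes that receive or bind these hormones were read from the same arrays. Of 17 listed receptors and binding partners, 16 were tested, and 0 were called at either dose by limma, with 3 at an unadjusted p below 0.05 at each dose. Over all tested genes, 0% were called at 28 µM, 1.57% upward and 1.42% downward at 42 µM, and 11.9% and 16.1% had an unadjusted p below 0.05 at 28 µM and 42 µM, so these counts are near the background and are no result about the list. GFRAL, the receptor of GDF15, was well above background on 1 of 12 arrays and was not tested, and its partner RET was so on 5 of 12. KLB, the co-receptor of FGF21, had means of 11.71 ± 0.09 (DMSO), 11.50 ± 0.12 (28 µM) and 11.35 ± 0.24 (42 µM; log2, SD, n = 4 each), a log2 fold change of -0.36 at 42 µM (adjusted p = 0.162 from limma). The log2 fold changes at 42 µM of the FGF receptors were -0.40 for FGFR1, -0.18 for FGFR2, -0.39 for FGFR3 and -0.13 for FGFR4. The 4 tested probes of FGFR1 ran from -0.40 to 0.32.

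The activin receptors ACVR1, ACVR1B, ACVR1C, ACVR2A and ACVR2B had log2 fold changes of 0.36, -0.03, 0.13, 0.30 and 0.20 at 42 µM. TGFBR3, a co-receptor for inhibins, had -0.05. PAPPA and PAPPA2, the proteases that stanniocalcins inhibit, had 0.08 and -0.01. IGFBP4 and IGFBP5, binding proteins of insulin-like growth factors, had -0.10 and -0.05. The median over the 16 tested genes was -0.02 at 28 µM and -0.05 at 42 µM, beside -0.02 at each dose over all genes. Of the 16, 11 were well above background on every array, and the others were RET and PAPPA2 (5 of 12 arrays each), IGFBP5 (10), IGFBP4 (11) and ACVR2A (11).

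Among family relatives and antagonists, such as other growth differentiation factors, activin subunits and follistatins, 19 of 22 listed genes were tested and 0 were called at either dose by limma, with 3 at an unadjusted p below 0.05 at 28 µM and 5 at 42 µM, beside 11.9% and 16.1% of all genes. With 0% of all genes called at 28 µM, and 1.57% upward and 1.42% downward at 42 µM, a count of 0 is near the background for this list too. The list had a median of -0.07 (28 µM) and -0.09 (42 µM) in log2 fold change. At the ends of the range at 42 µM, and named for that after the values were seen, were FGF19, an intestinal and hepatic relative of FGF21, at 0.60 (adjusted p = 0.199 from limma) and INHBB, the beta B subunit, at -0.48 (adjusted p = 0.267 from limma). INHBC, the beta C subunit, which like INHBE is made in the liver, had -0.04 against 1.19 for INHBE, a pair whose difference was not tested.

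All 18 transcriptional regulators listed were tested. Of these, 6 rose and 1 fell at 42 µM by limma, against 1.57% and 1.42% of all tested genes. The list was drawn up with earlier results of these data known, so nothing is read from that count. The median of the list was 0.22 at 28 µM and 0.27 at 42 µM. NUPR1, a small stress-induced nuclear protein, rose by 2.61 (SE 0.528, adjusted p = 0.0209 from limma). DDIT3, which binds DNA together with C/EBP factors, rose by 2.19 (SE 0.414, adjusted p = 0.0167 from limma), and TRIB3, a pseudokinase that restrains ATF4 and AKT, rose by 2.19. ATF4, the main transcription factor of the integrated stress response, rose by 0.76 (SE 0.122, adjusted p = 0.0125 from limma), and its 2 probes gave 0.76 and 1.18. ATF3 (2.13) and CEBPB (1.45) complete the 6, and ATF5, a relative of ATF4, fell by 0.70 (adjusted p = 0.0402 from limma).

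Replicate 4 at 28 µM was also near DMSO for most of these regulators. It was at 6.96 for NUPR1 (DMSO mean 7.02 ± 0.18, n = 4), at 8.05 for DDIT3 (7.95 ± 0.18) and at 13.18 for TRIB3 (13.24 ± 0.07). ATF4 was different, since this array was at 16.11 and the DMSO mean was 15.75 ± 0.05. CEBPG, a C/EBP factor that pairs with ATF4 and is named here after its values were seen, was at 11.81 on the array against 10.57 ± 0.31 on DMSO (SD, n = 4). At 28 µM, 0 of the 76 tested genes of the 4 lists were called by limma, as were 0% of all genes. Of the 76, 20 had an unadjusted p below 0.05, beside 11.9% of all genes. Once replicate 4 was left out, 11 of the 76 were called at 28 µM, NUPR1, DDIT3, TRIB3 and ATF4 among them. In that fit 351 genes upward and 239 downward of all 24259 were called. The lists were drawn up with earlier results of these data known, so nothing is read from these counts.

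Of 23 tested genes for other secreted factors, 3 rose and 1 fell at 42 µM by limma, against 1.57% and 1.42% of all tested genes. Nothing is read from that count either, since this list was also drawn up with earlier results known. AREG, a ligand of the epidermal growth factor receptor, rose by 2.46 (SE 0.459, adjusted p = 0.0165 from limma). VEGFA, an angiogenic factor, rose by 1.18 (adjusted p = 0.0184 from limma) through its brightest probe, which was the only called one of 3 tested, the lowest giving 0.48. ADM2, a peptide of the calcitonin family, rose by 0.75 (adjusted p = 0.0264 from limma), but it was well above background on only 1 of 4 DMSO arrays, against 4 of 4 at each dose, so its DMSO level and the size of the difference are uncertain, and it passed the filter through the treated groups. DKK1, a secreted inhibitor of Wnt signalling, fell by 2.00 (adjusted p = 0.0178 from limma). The median over the list was 0.01 at 28 µM and 0.13 at 42 µM. Over the 4 lists, 11 of 76 genes were called at 42 µM (9 upward and 2 downward, beside the same shares of all genes), 12 were called with the slide as a random block, and 0 were called with the slide as a fixed block, without DMSO replicate 2 or without 42 µM replicate 2. The count was 3 without DMSO replicate 1 or DMSO replicate 4, 5 without DMSO replicate 3 and 7 without 42 µM replicate 1.

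**Figure D2:**
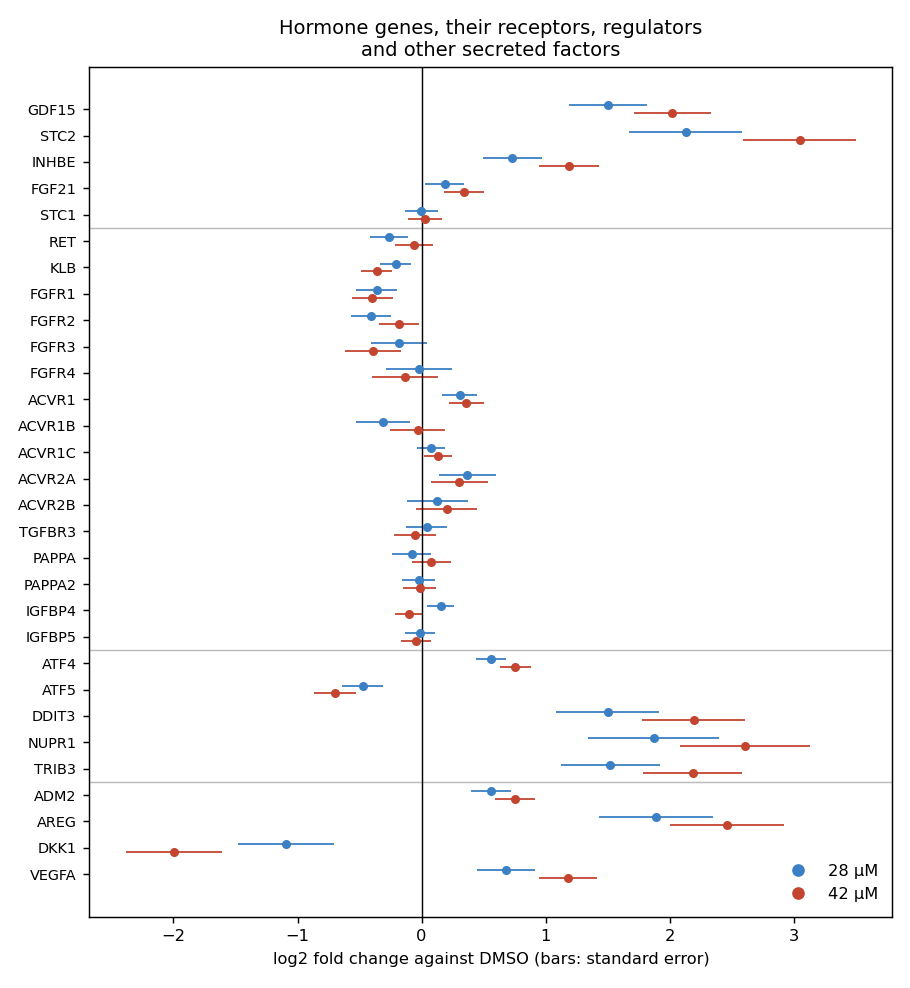
Log2 fold change against DMSO (horizontal axis, bars giving the standard error of the limma fit) at 28 µM and 42 µM for the 5 hormone genes, then the tested receptors and binding partners, the named regulators and the named other secreted factors, with grey lines between the groups. The 16 receptors and binding partners lie between -0.40 and 0.36 at 42 µM, and STC2 is at 3.05.

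The genes whose profiles ran closest to each hormone gene were found by the root-mean-square difference of log2 values, centred on the DMSO mean, over all 12 arrays and among 18236 genes well above background on every array. For STC2 they were CHAC1, which degrades glutathione, ASNS, asparagine synthetase, and PCK2, the mitochondrial phosphoenolpyruvate carboxykinase, at 0.24, 0.30 and 0.32, where the median gene was at 2.29. For GDF15 they were SLC3A2, the shared heavy chain of amino acid transporters, TRIB3 and NEU1, a lysosomal sialidase, at 0.18, 0.20 and 0.21, with a median of 1.57. For INHBE they were PTPRH, a receptor tyrosine phosphatase, OPTN, an autophagy receptor, and TMEM268, at 0.13, 0.13 and 0.14, with a median of 0.93.

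Replicate 4 at 28 µM was among the 12 arrays used for the choice, so the low values of the 9 neighbours of STC2, GDF15 and INHBE there, between -0.14 and 0.31 from their DMSO means, follow from it and are no separate observation. FGF21 had NBR1, DECR1 and VPS28 as its closest genes, at 0.09, 0.12 and 0.12, with a median of 0.41, and its own change was small. STC1 was well above background on 10 of 12 arrays and was left out of this search. These are descriptions of likeness over arrays that share the DMSO group.

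**Figure D3:**
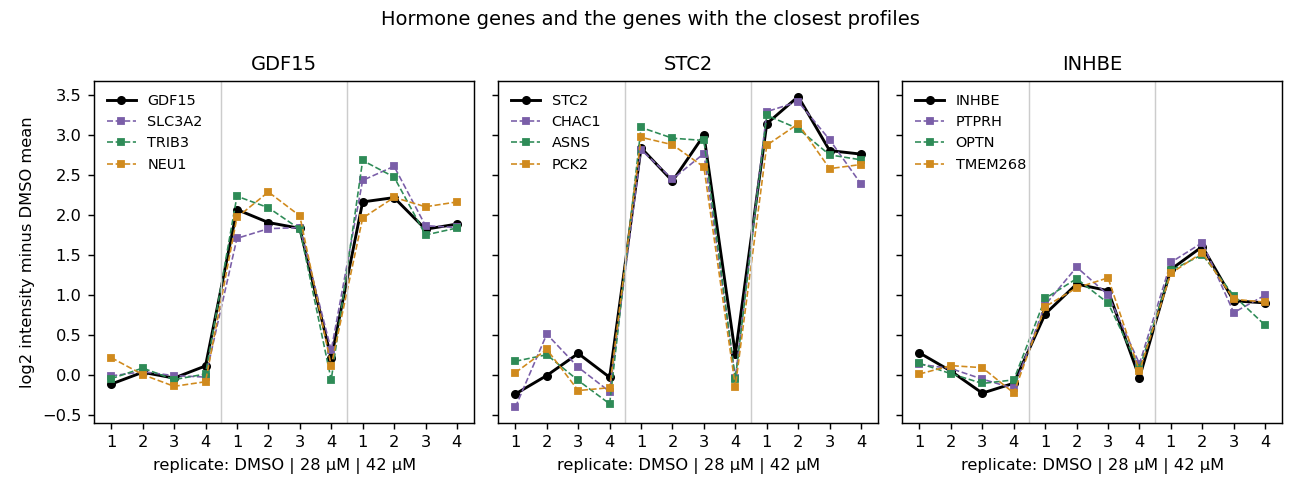
Log2 intensity minus the DMSO mean (vertical axis) on the 12 arrays, 4 of DMSO, 4 of 28 µM and 4 of 42 µM from left to right (horizontal axis), for GDF15, STC2 and INHBE (solid black line) and the 3 genes with the closest profile to each (dashed lines). The lines join arrays only to guide the eye, and the likeness, at 28 µM replicate 4 too, is what the genes were chosen for.

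Markers of hepatocytes and of other cell types were read as a check of the labelled line. A summed level follows its brightest probes, and levels of different probes are not ranked here. All 9 hepatocyte markers were tested and 0 were called at either dose by limma, with 0 at an unadjusted p below 0.05, and their summed level lay between 17.4 and 17.6 (log2) on every array of every group, TTR being left out of the sum on the 1 array of 42 µM where its spot was flagged. ALB, serum albumin, was at 16.14 on DMSO and 16.07 at 42 µM, and AFP, alpha-fetoprotein, was at 13.10 and 13.46. Dimmer hepatocyte markers were HNF4A, at 6.73 on DMSO and 6.68 at 42 µM, and APOB, at 9.04 and 9.64. Of 5 markers of blood, endothelial and connective tissue cells, 0 were called by limma, with 0 at an unadjusted p below 0.05. Their summed level was 10.5 to 10.7 in the DMSO group as in the 28 µM group, and 10.4 to 10.6 in the 42 µM group. PTPRC, the leukocyte marker, was well above background on 2 of 12 arrays, and COL1A2, a collagen chain, was at 10.12 on DMSO and 10.04 at 42 µM. CD14 was well above background on all 12 arrays, at 7.98 on DMSO and 7.69 at 42 µM.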

How the data were processed

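RNA of 12 HuH-7 cultures, 4 per group and given as biological replicates in the labels, was hybridised to Agilent arrays of 1 colour. The authors deposited, for every array, the intensity of each spot and of its local background as Agilent Feature Extraction 10.7.3.1 wrote them, and a table of normalized log2 values that they had made with the Edwards background correction and quantile normalization. From the deposited intensities, the same steps were repeated here with limma 3.58.1 in R 4.3.3. Control spots (1639 of 45015) and spots with an outlier flag (79 to 119 per array) were left out, and the fit drops an array for a probe flagged there. Spots of a probe were averaged. A probe was kept where fewer than 3 of the 4 arrays of some group lacked a signal well above background, which left 33476 of 41000 gene probes. Probes were named through RefSeq accessions (28078 matched), otherwise by the name in the file, and a gene is read from its probe with the highest mean log2 value.

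One linear model with the 3 groups was fitted per probe by limma (lmFit, then eBayes), two-sided, with Benjamini-Hochberg adjustment over all tested probes, and the script was tested on simulated data. The limits are an adjusted p of 0.05 and a log2 fold change of 0.6, and a limit of 1, which the methods name, was tried. The 5 genes, the gene lists and the rule for named genes were chosen with earlier results of these data known. Named by rule are the 5 genes, the tested receptors and binding partners, ATF4, DDIT3 and NUPR1, and the 3 closest profiles. The rule also names, in each list, up to 3 called genes of largest rise and of largest fall at 42 µM. Outside this rule, ATF3, CEBPB, CEBPG, FGF19, INHBB and INHBC are named with their values known, and cell type markers as a check. Alternatives were other background corrections, normalizations, filters and fold limits, the authors' values, slide as a fixed or random block, replicate number as a block, only the groups compared in the fit, and each array left out. Depth has no counterpart on arrays, and the number of arrays limits the precision. Sequences come from RefSeq tables. Plots were made with matplotlib 3.10.9.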

Additional observations from a re-analysis of the deposited data

Results flagged for a closer look

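Of 93 groups of 4 arrays checked over the named genes, 11 held an array far from the other 3. Chance alone gives about 1 in 20 for independent groups. These groups share the same 12 arrays, so no excess over chance is read from the count. In 5 of the 11 the array was replicate 4 at 28 µM: GDF15 at 15.26, DDIT3 at 8.05, VEGFA at 8.38, ADM2 at 6.06 and DKK1 at 11.44 (log2). In 5 others it was a DMSO array: replicate 1 for PAPPA at 7.56, DDIT3 at 8.21 and ADM2 at 6.22, and replicate 2 for VEGFA at 8.77 and for the dim probe of STC2 at 5.97. The last was IGFBP4 at 6.42 on 28 µM replicate 3. STC2 and INHBE also lay near DMSO on replicate 4 at 28 µM, but the gaps were not large enough against the spread of the other 3 arrays.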

How the results depend on the processing

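The number of arrays and the brightness over background limit these results, and FGF21, STC1 and the dim probe of STC2 lie close to background. Over 25 alternatives, the log2 fold change at 42 µM lay between 2.90 and 3.21 for STC2 and between 1.92 and 2.13 for GDF15, both past the limits in 22, between 1.05 and 1.58 for INHBE, past them in 19, between 0.21 and 0.84 for FGF21 and between -0.08 and 0.19 for STC1, past them in 0. With the slide as a fixed block, 0 of the 5 genes and 0 of the 76 list genes were called at 42 µM, against 3 and 11 before, and the cause was not tested, while the slide as a random block gave 3 and 12, with 481 genes called upward and 428 downward. Leaving out each array in turn gave 0 to 3 of the 5 genes and 0 to 12 of the list genes at 42 µM, 0 to 3 of the 5 and 0 to 11 of the list genes at 28 µM, and 0 between the doses. Over all genes, those fits called 0 to 541 upward and 0 to 453 downward at 42 µM. At 28 µM they called 0 to 351 upward and 0 to 239 downward. Scaling to the 75th percentile changed the split of all calls at 42 µM, from 52.6% upward (381 upward, 344 downward) to 40.7% with the processed signal (200 and 291) and 37.8% with the Edwards values (256 and 421), with STC2, GDF15 and INHBE past the limits in both, and the quantile-normalized processed signal called 194 upward and 169 downward. Whether the replicate numbers pair the samples is not known. The correlation of same-numbered arrays, as deviations from their group means, ran from -0.46 to 0.62 over 12 pairs. Of these, 7 were above 0.1, and differently numbered arrays were not compared. With the replicate block, 3 of the 5 genes and 14 list genes were called at 42 µM, and among all genes 623 upward and 487 downward, against 381 and 344.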
